A study of Mus musculus with 5 samples.

Results

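The 10 immediate-early genes Fos, Fosb, Junb, Egr1, Egr3, Npas4, Arc, Nr4a1, Nr4a3 and Homer1 were followed through single-nucleus RNA libraries of the mouse central amygdala (CeA). They were taken by name out of the 22532 genes in the count matrices, with no threshold on a measured value, though with earlier results of these data known. The study asked how fasting changes CeA neurons, and nuclei of fed and fasted mice were sequenced by droplet capture of the 3′ ends of transcripts. All 5 libraries came from mice on the C57BL6 background, and each library pooled the CeA tissue of 1 male and 1 female. Fed replicates 1 and 2 were wild-type mice of 8 weeks with normal feeding. Fed replicate 3 came from Htr2a-Cre mice of 12 weeks that carried an AAV with Cre-dependent mCherry, so its genotype, virus, age and preparation cannot be told apart. Fasted replicate 1 was fasted for 20 hours and fasted replicate 2 for 21 hours, both at 8 weeks. In the paper, the fed and fasted datasets of number 1 shared a preparation, as did those of number 2. Its numbers are taken here to be the replicate numbers, though the labels do not state this match. Every mouse was anaesthetised with ketamine and xylazine before slicing and microdissection. Since each library is a pool of 2 mice, p-values measure the spread between pools.

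Of 23839 barcodes, 7161 had 500 to 8000 genes and less than 0.8% of mitochondrial unique molecular identifiers (UMIs, each a captured transcript), and 5982 of these (83.5%) were Gad neurons, which held a UMI of Gad1 or Gad2 and fewer than 2 of the excitatory markers Slc17a7 and Slc17a6. Per library there were 854 to 1307 fed and 1360 to 1525 fasted Gad neurons, with 8768128 to 28124991 UMIs. A gate of 3 Gad UMIs would keep 585 of 936, 707 of 854 and 1026 of 1307 in fed replicates 1, 2 and 3. It would keep 697 of 1360 and 1266 of 1525 in fasted replicates 1 and 2. Fasted replicate 1 thus rested most on neurons with few Gad UMIs, and the gate set no limit on glial markers. The median depth of a Gad neuron ran from 6983 UMIs in fasted replicate 1 to 17615.5 in fed replicate 2. Its median mitochondrial share was 0.0481% to 0.121% in the fed libraries and 0.214% to 0.295% in the fasted ones, so this measure of nucleus quality moved with feeding, and its part in the results was not tested. Any pair of libraries shared at most 1 barcode. Levels are given in CPM, the UMIs of a gene scaled to a total of 1000000 UMIs in the same sum of nuclei, and are compared between samples or classes and never between genes.

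Immediate-early genes are transcribed within minutes of synaptic activity or a growth signal, without the need for new protein, when calcium and kinase signals reach factors such as CREB and SRF that are already on the chromatin. Most of their products are transcription factors that switch on a later wave of genes, and a few act at the synapse. Neuroscientists use them, Fos above all, to mark neurons that were recently active, and in the CeA they are read after feeding, fear or pain.

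The members fall into families. Fos (chr12:85520658-85524047, plus strand, GRCm39), Fosb (chr7:19036621-19043976, minus strand) and Junb (chr8:85701113-85705359, minus strand) encode subunits of the dimeric factor AP-1. Egr1 (chr18:34992876-34998049, plus strand) and Egr3 (chr14:70314350-70320063, plus strand) encode zinc finger factors. Npas4 (chr19:5034382-5040344, minus strand) encodes a factor of the bHLH-PAS family that responds to calcium entry. Nr4a1 (chr15:101151980-101172681, plus strand) and Nr4a3 (chr4:48045153-48086447, plus strand) encode orphan nuclear receptors. Arc (chr15:74540932-74544419, minus strand) encodes a synaptic protein that takes part in the removal of AMPA receptors. Homer1 (chr13:93436143-93541637, plus strand) encodes a postsynaptic scaffold whose short activity-induced form, Homer1a, and long constitutive forms share this locus. The deposited counts are per gene and do not separate these forms, so Homer1 is here the sum of both.

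Stimulus-driven transcription of several members runs through cyclic AMP response elements, and the 250 bases before the start of transcription are shown for 4 members of different families with these letters marked.

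The sequences are from RefSeq (GRCm38.p6) and run 5′ to 3′ on the strand of the gene, with TGACG or its reverse complement CGTCA, the half-site of the element, in capitals. They cover chr12:85473640-85473889 on the plus strand for Fos, chr19:4989972-4990221 on the minus strand for Npas4, chr4:48045055-48045304 on the plus strand for Nr4a3 and chr13:93303507-93303756 on the plus strand for the first listed start of Homer1.
Fos: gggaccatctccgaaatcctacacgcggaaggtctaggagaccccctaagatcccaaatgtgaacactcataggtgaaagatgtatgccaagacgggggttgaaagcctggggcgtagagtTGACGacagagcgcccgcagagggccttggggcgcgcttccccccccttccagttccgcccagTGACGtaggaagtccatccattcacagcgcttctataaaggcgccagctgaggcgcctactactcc
Npas4: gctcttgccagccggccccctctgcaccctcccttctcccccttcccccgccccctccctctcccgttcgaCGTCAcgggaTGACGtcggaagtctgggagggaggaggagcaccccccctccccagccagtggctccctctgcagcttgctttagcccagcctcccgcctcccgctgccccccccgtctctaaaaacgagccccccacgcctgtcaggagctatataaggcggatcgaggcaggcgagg
Nr4a3: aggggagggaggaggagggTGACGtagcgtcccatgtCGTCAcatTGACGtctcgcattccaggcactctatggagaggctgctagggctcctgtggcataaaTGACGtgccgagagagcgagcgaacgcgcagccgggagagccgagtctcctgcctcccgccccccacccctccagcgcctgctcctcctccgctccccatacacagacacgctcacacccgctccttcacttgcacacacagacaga
Homer1: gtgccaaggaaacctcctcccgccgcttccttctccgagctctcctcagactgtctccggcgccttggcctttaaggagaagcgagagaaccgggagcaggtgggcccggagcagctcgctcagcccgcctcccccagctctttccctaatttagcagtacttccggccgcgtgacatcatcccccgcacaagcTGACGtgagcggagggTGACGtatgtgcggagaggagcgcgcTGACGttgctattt

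The half-site was found in the promoters of 7 of the 7 members that matched the RefSeq table (Fos, Fosb, Junb, Npas4, Nr4a1, Nr4a3 and Homer1), against 19.8% of all 27025 genes with a promoter of the same length in the table and 17.8% of its 32851 promoters. Fos held 2 half-sites, which began 66 and 129 bases before the start, Npas4 held 2 at 169 and 179 bases, Nr4a3 held 4 between 147 and 231 bases, and Homer1 held 3 between 14 and 56 bases. The other listed start of Homer1 held none. The full palindrome TGACGTCA, which contains the half-site on both strands, was in none of the 7 and in 1.55% of all promoters. Of the other motifs searched on both strands, the EGR motif GCGNGGGCG was in 2 members (Fosb and Nr4a1) against 4.70% of promoters, the AP-1 motif TGANTCA in 0 against 6.75%, and TATAAA in 1 (Fos) against 12.4%. These matches are descriptions of letters and not of bound sites. Egr1, Egr3 and Arc had no entry.

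All 10 members were detected in Gad neurons of every library. In fed replicates 1, 2 and 3 and fasted replicates 1 and 2, in this order, Fos stood at 5.47, 5.84, 8.04, 4.54 and 7.04 CPM. Fosb stood at 2.97, 2.22, 7.15, 4.84 and 2.60 CPM, and Junb at 6.73, 8.07, 6.91, 5.63 and 8.14. Fasted replicate 1 was the lowest library for Fos and Junb and the second highest for Fosb, so the AP-1 genes did not share an order of libraries. Egr1 stood at 23.0, 19.5, 24.7, 22.2 and 23.1 CPM and Egr3 at 6.16, 8.07, 13.1, 9.57 and 9.81. Npas4 stood at 15.4, 11.2, 18.1, 13.8 and 13.5. The lowest and the highest value of each of these 3 factors were both in fed libraries. Nr4a1 stood at 24.1, 16.5, 31.0, 19.6 and 22.3 CPM and Nr4a3 at 23.6, 13.8, 30.2, 26.2 and 19.0, again with fed replicate 2 lowest and fed replicate 3 highest. The synaptic members Arc, at 4.22, 2.67, 4.83, 4.64 and 4.12 CPM, and Homer1, at 116, 132, 137, 135 and 133, also had fasted values inside the fed range. Fed replicate 3 was the highest library for 9 of the 10 members, with Junb, highest in fasted replicate 2, the exception.

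**Figure D1:**
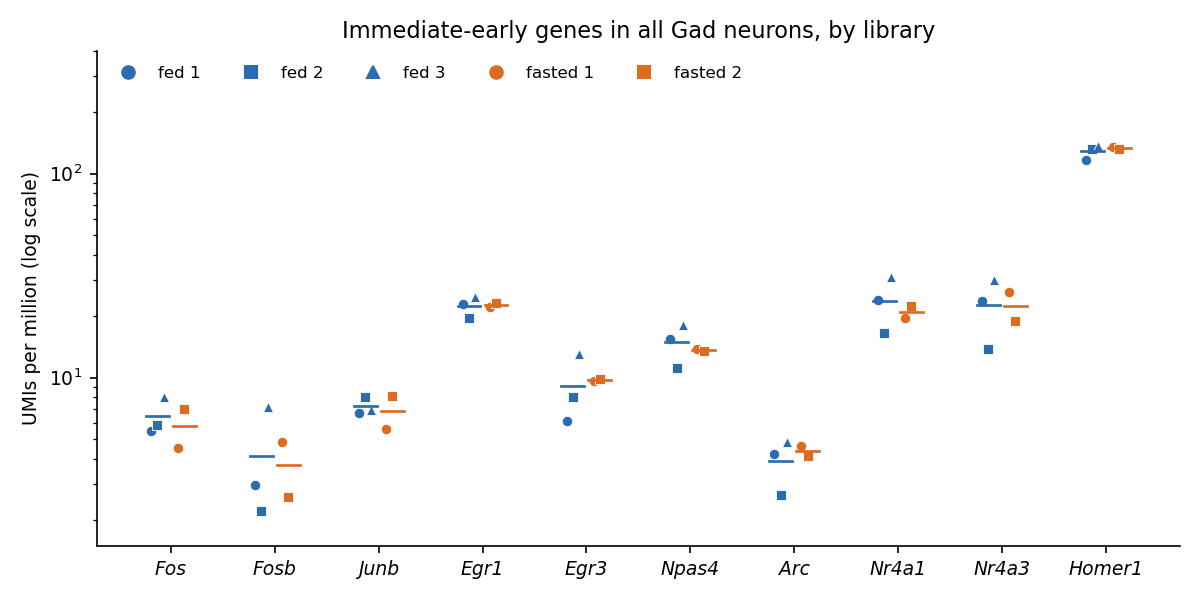
Levels of the 10 members in Gad neurons, in CPM on a log axis, with 1 point per library and a line at the mean of the 3 fed or 2 fasted libraries. The fed and fasted points overlap for every member, and Fosb, Nr4a1 and Nr4a3 have their highest point in fed replicate 3.

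These low sums were spread unevenly over the nuclei. Leaving out Homer1, which was found most widely, 49.2% to 72.0% of the Gad neurons of a library held no UMI of the 9 other members, and the 1% of nuclei with the most held 24.9% to 32.3% of all their UMIs. The richest nucleus of fed replicate 1 held 79 UMIs of the 9 members, of which 47 were Nr4a3. The richest of fed replicate 3 held 103, among them 12 of Fos, 15 of Fosb, 11 of Npas4 and 30 of Nr4a3. The richest nuclei of fed replicate 2, fasted replicate 1 and fasted replicate 2 held 94, 44 and 82 such UMIs, so a strongly expressing nucleus was found in fed and in fasted libraries.

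The members were detected in the same nuclei. Each of 5640 Gad neurons with enough depth was thinned to 4000 UMIs, and the nuclei holding both genes of a pair were counted against the number expected from each gene's share within each library. All 45 pairs lay above the expected number, 40 of them in all 5 libraries and the other 5 in 4 libraries, with a median ratio of observed to expected of 5.25. Fosb and Arc met in 18 nuclei against 1.06 expected, a ratio of 17.0, the largest of the 45. Fos met Fosb in 19 nuclei against 1.20 expected (ratio 15.8), Junb in 37 against 2.81 (ratio 13.2) and Egr1 in 65 against 6.84 (ratio 9.50). The 36 pairs without Homer1 had a median ratio of 6.44 and none under 3.27. The 9 pairs with Homer1 had a median of 1.47, from 1.21 with Junb to 1.97, and this contrast is seen along the Homer1 edge of the plot of pairs. These ratios are given as a description, since nuclei of 1 library are not replicates.

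**Figure D2:**
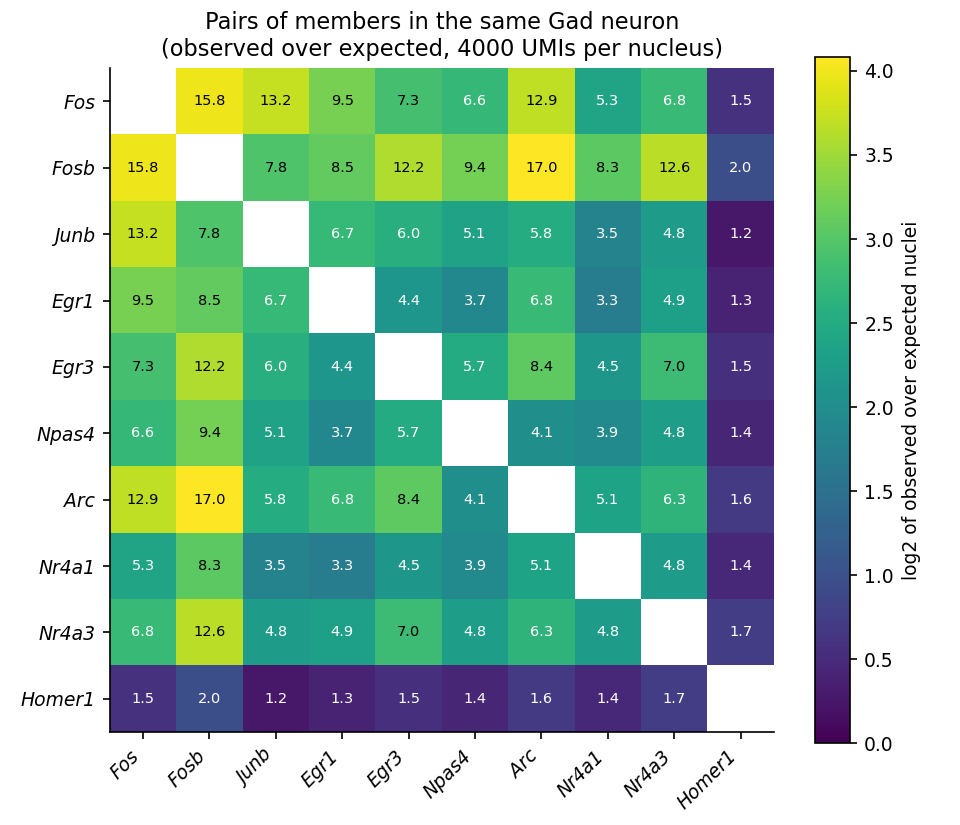
Ratio of observed to expected nuclei holding UMIs of both genes of each pair of members, over 5640 Gad neurons thinned to 4000 UMIs, with the colour on a log2 scale. Ratios of Homer1 pairs run from 1.21 to 1.97, and those of the other 36 pairs from 3.27 to 17.0.

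To ask which genes went with Fos, Gad neurons were split into those with a Fos UMI (27, 36 and 86 nuclei in the fed libraries, 31 and 66 in the fasted ones) and those with none, and both sums of each library were compared. All 9 other members were higher in the Fos-positive nuclei, in 5 of 5 libraries each (edgeR quasi-likelihood test with the library as a block, Benjamini-Hochberg adjusted p from 2.50e-11 for Egr1 to 7.77e-07 for Homer1). Over all 11851 genes tested, 4.55% were called higher and the median log2 fold change was -0.03. The split used Fos itself, so the Fos level is no result.

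In the order given above, Egr1 stood at 161, 190.1, 162, 241 and 172 CPM in Fos-positive nuclei and at 18.4, 10.8, 14.3, 16.1 and 14.8 in Fos-negative ones. The ranges were far apart, and the log2 fold change was 3.64 ± 0.13 (SE). Junb stood at 59.4, 84.6, 41.3, 69.5 and 61.6 CPM against 4.95, 4.14, 4.30, 3.86 and 5.14, a log2 fold change of 3.75 ± 0.21. Fosb, with 24.5, 18.2, 77.0, 95.1 and 31.5 against 2.24, 1.40, 1.86, 2.33 and 0.976 CPM, had the largest log2 fold change of the members, 4.72 ± 0.32. Its Fos-positive values spread more than those of Junb, and fed replicate 3 and fasted replicate 1 were the highest. Of the 7 Fosb UMIs in Fos-positive nuclei of fed replicate 1, 6 came from 1 nucleus. Arc stood at 41.9, 22.1, 35.0, 54.8 and 37.5 CPM against 2.95, 1.67, 2.55, 3.25 and 2.25, a log2 fold change of 3.88 ± 0.26. Nr4a3 stood at 248, 129, 178, 271 and 104 against 16.0, 7.95, 19.1, 19.4 and 14.2 CPM. A single nucleus held 47 of the 71 Nr4a3 UMIs in Fos-positive nuclei of fed replicate 1, and another 42 of the 254 of fed replicate 3. The split was not repeated without the richest nuclei. The log2 fold change of Nr4a3, 3.49 ± 0.15, was larger than that of its relative Nr4a1 (2.64 ± 0.16), a difference between the 2 genes that was not tested. Egr3 (3.13 ± 0.18) and Npas4 (2.94 ± 0.15) lay between these. Homer1 stood at 294, 258, 252, 395 and 287 against 110.4, 126, 128, 128 and 124 CPM, and its log2 fold change of 1.21 ± 0.10 was the smallest of the 9. Fos-positive nuclei of a library were the deeper ones, with medians of 7689 to 21765.5 UMIs against 6939 to 17350.5. All 9 members were still called when every nucleus was thinned to 4000 UMIs before the split, and also without the Prkcd-gated neurons described below.

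**Figure D3:**
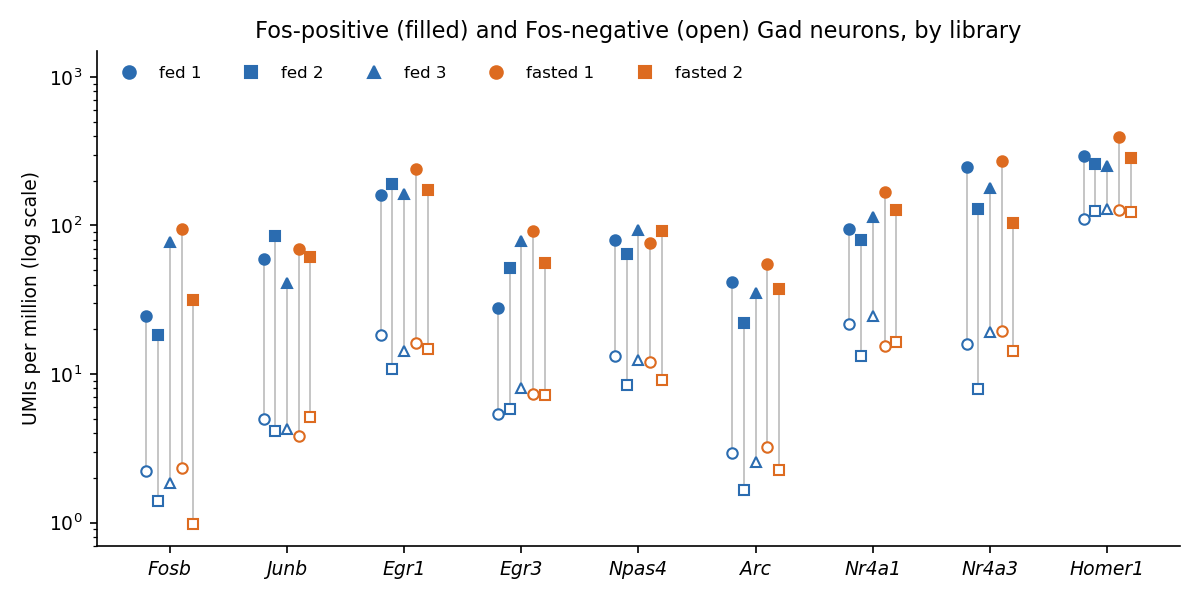
Levels of the 9 other members in Fos-positive (filled) and Fos-negative (open) Gad neurons of each library, in CPM on a log axis. Every filled point lies above the open points of its gene, with the smallest step for Homer1.

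The lists of related genes moved unevenly in this split. Of 24 other immediate-early genes 16 were tested and 14 were higher in Fos-positive nuclei, with a median log2 fold change of 2.92. Among them were Egr2 (5.40 ± 0.40) and Egr4 (4.42 ± 0.31), zinc finger factors like Egr1, the AP-1 subunit Fosl2 (3.41 ± 0.24), the antiproliferative gene Btg2 (4.26 ± 0.21) and the clock gene Per1 (1.64 ± 0.12), with adjusted p from 1.83e-09 to 2.24e-07. A gene could pass the filter on low counts through the Fos-positive sums alone, which favours genes high there. Egr2, for one, was at 0.263 to 1.01 CPM in Fos-negative and 10.5 to 32.2 in Fos-positive sums. Of 12 late-response genes 8 were tested and 5 were higher, with a median log2 fold change of 1.19, led by Tiparp, a poly(ADP-ribose) polymerase (2.19 ± 0.14, adjusted p 4.97e-08). Of the 15 upstream regulators, such as Srf, Creb1 and Mef2 factors, 15 were tested and 2 were called, with a median log2 fold change of -0.09. Homer2, a relative of Homer1, was at -0.22 and was not called. Heat shock and handling genes moved too: 4 of 5 tested of the 8 listed were higher, with a median of 0.89, and their summed level was 423 to 775 CPM in Fos-positive against 193 to 333 in Fos-negative nuclei. The part of handling in the result was not tested. Microglial markers summed to 0 to 344 CPM in Fos-positive nuclei, most in fasted replicate 1, and all 9 members were also called without the neurons that held 3 or more of these UMIs.

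Baseline levels were then compared between marker-gated classes in the 3 fed libraries. Gad neurons were placed by UMIs of 1 marker each, in a fixed order. First came Foxp2 (467 nuclei over 5 libraries, known from intercalated cells), Rarb (963, amygdalostriatal), Dnah5 (486, lateral CeA) and Calcrl (217, capsular CeA). Then came Prkcd (409, lateral CeA), Sst (187, lateral and medial CeA) and Tac1 (24, medial CeA), and 3229 (54.0%) passed no gate. The Sst gate used no regional marker and came before Tac1, and the paper finds Sst cells in the lateral and the medial CeA. No gate used a member. The Tac1 class had 2 to 7 nuclei per library and was not tested. The classes differ in size, so few UMIs stand behind some values, and limits given for a count of 0 cover counting error only.

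Egr1, Fos, Junb and Homer1 differed between the 6 classes tested in fed mice (edgeR quasi-likelihood F-test, adjusted p 1.16e-05, 0.00132, 0.00334 and 0.00692), 4 of the 8 members that passed the filter on low counts. Over all 9698 genes tested 36.4% were called, so this share of members was not far from the background. Nr4a1, Egr3, Nr4a3 and Npas4 had adjusted p of 0.186, 0.340, 0.465 and 0.768, and Fosb and Arc were too low to be tested.

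Egr1 averaged 68.0 ± 39.0 CPM (SD, n = 3) in the Prkcd-gated neurons, 36.8 ± 8.03 in Dnah5, 35.9 ± 9.50 in Calcrl, 22.8 ± 9.81 in Foxp2, 18.5 ± 8.58 in Rarb and 6.17 ± 6.06 in Sst. The neighbours Dnah5 and Calcrl, and Foxp2 and Rarb, lay within their spread. Fos averaged 22.5 ± 17.0 in Prkcd, 9.19 ± 6.28 in Calcrl, 7.46 ± 0.676 in Dnah5, 6.64 ± 5.23 in Foxp2, 5.30 ± 1.64 in Rarb and 2.09 ± 2.02 CPM in Sst, where the 4 middle classes overlapped. Junb had the same leading class, with 23.4 ± 19.6 in Prkcd, 15.7 ± 5.04 in Dnah5, 12.9 ± 12.7 in Calcrl, 7.17 ± 5.96 in Foxp2, 7.04 ± 5.37 in Sst and 5.44 ± 1.26 in Rarb. Homer1 had another order, with 180.4 ± 14.8 in Rarb and 125 ± 12.7 to 148 ± 28.4 CPM in the other 5 classes.

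**Figure D4:**
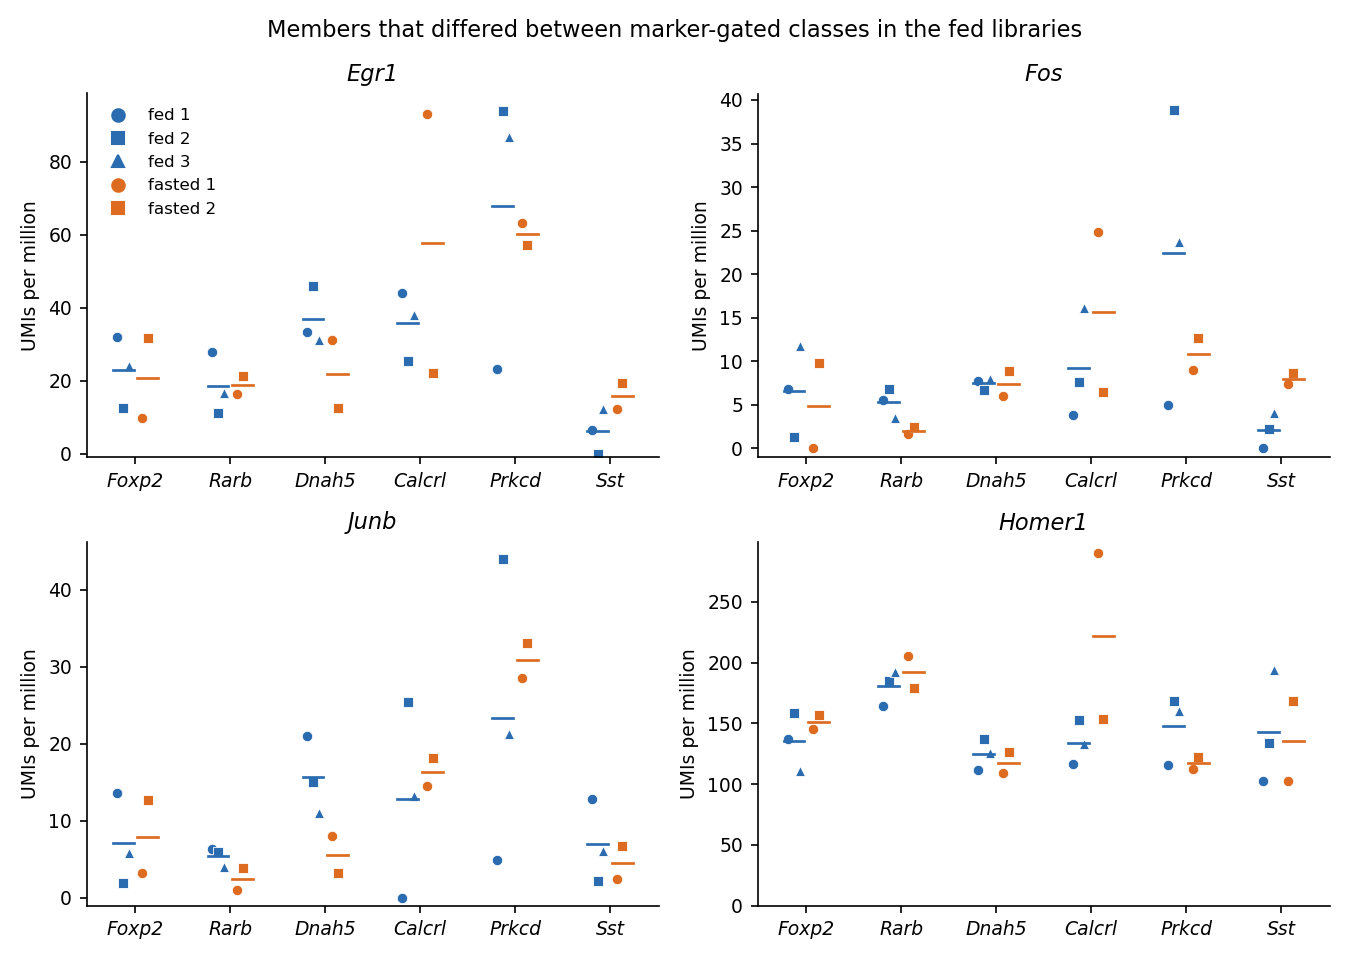
Levels of Egr1, Fos, Junb and Homer1 in the 6 tested marker-gated classes, in CPM with 1 point per library. In Prkcd-gated neurons the fed values of Fos, Junb and Egr1 are lowest in fed replicate 1, while Homer1 is highest in the Rarb class in 2 of 3 fed libraries.

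Prkcd marks a class of lateral CeA neurons known for feeding suppression and responses to aversive cues. In fed replicates 1, 2 and 3 its Egr1 level was 23.1, 94.0 and 86.7 CPM, its Fos level 4.95, 38.8 and 23.7, and its Junb level 4.95, 44.0 and 21.2. Fed replicate 1 was low for all 3 genes, with 3 UMIs each of Fos and Junb, and there Prkcd was below several classes. In that library Egr1 was higher in Calcrl (44.0 CPM), Dnah5 (33.2) and Foxp2 (31.9). Junb was higher in Dnah5 (21.0), Foxp2 (13.7) and Sst (12.8), and Fos in Dnah5 (7.74) and Foxp2 (6.84). The lowest class there was Sst for Egr1 and Fos and Calcrl for Junb. Against the mean of the other classes, Egr1 was higher by a log2 fold change of 1.87 ± 0.27 (SE, edgeR quasi-likelihood test with Benjamini-Hochberg adjustment, adjusted p 2.73e-06), Fos by 2.01 ± 0.37 (0.000120) and Junb by 1.65 ± 0.39 (0.00171), while 12.8% of all genes were called higher in this class. Without fed replicate 2 the log2 fold change of Junb was 0.94 with an adjusted p of 0.194, and those of Egr1 and Fos were 1.39 and 1.34 and still called. The microglial markers summed to 117, 25.0 and 17.5 CPM in the 3 fed libraries, most where the members were lowest, and without neurons holding them the 3 log2 fold changes were 1.85, 2.05 and 1.62.

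Counted per nucleus in the fed libraries, Egr1 was found in 18.7% of 219 Prkcd-gated nuclei thinned to 4000 UMIs, Junb in 6.85% and Fos in 6.39%. In oligodendrocyte-gated nuclei, which should hold little of these genes, each was found in 0 of 49 fed nuclei, a count that allows up to 6.12%. Pooled over fed libraries, the Egr1 share of Prkcd-gated nuclei lay above that limit, while those of Junb and Fos were close to it. By library, Egr1 was in 8.06%, 22.2% and 23.3% of Prkcd-gated nuclei in fed replicates 1, 2 and 3. The oligodendrocyte counts of 0 allowed up to 17.6%, 14.3% and 27.3% there, so Egr1 was above the limit only in fed replicate 2. Fos and Junb were lowest in fed replicate 1, at 1.61% each. Nuclei of 1 library are not replicates, so the pooled shares are a description. Fosb, Egr3, Npas4 and Arc were also in 0 of these oligodendrocyte-gated nuclei, but Homer1 was in 34.7%, Nr4a3 in 8.16% and Nr4a1 in 6.12%. In fed Gad neurons Homer1 was in 37.0%, Nr4a3 in 4.72% and Nr4a1 in 7.92%. The glial gate set no limit on excitatory markers, and how clean it was has not been tested. In Sst-gated nuclei Egr1 was found in 1.39% of 72, within what the pooled oligodendrocyte count allows. In the fasted libraries Egr1 was found in 15.4% of 175 Prkcd-gated and in 7.5% of 80 oligodendrocyte-gated nuclei, the latter being 5 nuclei of fasted replicate 2 and 1 of fasted replicate 1. Before thinning, the median depth of a library ran from 3155 to 5797.5 UMIs in oligodendrocyte-gated and from 7191 to 19661 in Prkcd-gated nuclei. The share of nuclei with 3 or more members after thinning averaged 8.56% ± 7.61 (SD, n = 3 fed libraries) in Prkcd, 6.91% ± 3.07 in Dnah5, 6.15% ± 1.16 in Calcrl, 5.90% ± 1.82 in Rarb, 4.24% ± 1.89 in Foxp2 and 2.02% ± 3.50 in Sst, and these ranges overlapped.

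The other called members belonged to different classes. Homer1 in Rarb-gated neurons stood at 164, 185 and 193 CPM in the fed libraries, a log2 fold change of 0.46 ± 0.10 against the other classes (adjusted p 0.00129, with 9.67% of all genes called higher). Egr1 in Sst-gated neurons, which release somatostatin, stood at 6.41, 0 and 12.1 CPM (the 0 allows up to 6.68) and was lower, with a log2 fold change of -2.33 ± 0.68 (adjusted p 0.0233, with 4.63% of all genes called lower). That call rests on fed replicate 2, without which the log2 fold change was -1.66 with an adjusted p of 0.108, and without fed replicate 3 it was -4.13.

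In the Prkcd class 4 of 8 tested other immediate-early genes were called higher, with a median log2 fold change of 0.86 against 0.02 over all genes. Btg2 (1.96 ± 0.34) and the stress-response gene Gadd45g (1.88 ± 0.31) were among them, with adjusted p of 4.92e-05 and 2.72e-05. Of 7 late-response genes 1 was higher and 1 lower, the latter Rasgrp1, an exchange factor for Ras (-0.89 ± 0.12). Of 14 upstream regulators 2 were higher and 2 lower, where 11.5% of all genes were called lower in this class, among them the calcium-dependent kinase Camk4 (1.49 ± 0.08) and the factor Mef2c (-1.42 ± 0.23). Homer2 was lower (-1.15 ± 0.18), and 1 of 4 heat shock and handling genes was called.

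Fasting was compared with feeding first in all Gad neurons. No member was called (0 of 10, edgeR quasi-likelihood test), 0 had an unadjusted p under 0.05, and both counts were also 0 by the edgeR likelihood ratio test and by DESeq2. The background was 0% of 13753 genes called, with 801 genes at an unadjusted p under 0.05. With the replicate number as a block 413 genes were called and still 0 members, with log2 fold changes that turned to 0.40 for Fosb, 0.27 for Nr4a3 and 0.0210 for Fos. Fed replicate 3 is alone in its number, so the block contrast rests on numbers 1 and 2. In the main fit the log2 fold changes of fasted over fed were -0.18 for Fos (95% interval -0.75 to 0.40), -0.01 for Egr1 (-0.34 to 0.32), 0.03 for Homer1 (-0.25 to 0.31) and, with the widest interval, -0.28 for Fosb (-1.46 to 0.89). Those of the other 6 lay between -0.21 for Nr4a1 and 0.12 for Arc. Within both numbers the fasted library stood above the fed one for Fosb, Egr3, Arc, Nr4a3 and Homer1, on the scale of log2 of CPM plus 1 by 0.56 and 0.16 for Fosb, 0.56 and 0.25 for Egr3, 0.11 and 0.48 for Arc, 0.14 and 0.43 for Nr4a3 and 0.21 and 0.0035 for Homer1. Fos, Junb, Egr1, Npas4 and Nr4a1 were lower in the fasted library within number 1 and higher within number 2. The share of all genes with the same direction in both numbers was not counted, so no background stands beside these members. No member was higher or lower in both fasted libraries than in all 3 fed ones, while 11.4% of genes were higher and 6.44% lower. The intervals leave room for changes of a size that differs by gene, smallest for Homer1 and Egr1.

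Summed over their lists in Gad neurons, astrocyte markers were 114 to 159 CPM in fed and 158 to 198 in fasted libraries, oligodendrocyte markers 179 to 217 and 228 to 280, microglial markers 14.1 to 23.8 and 25.6 to 36.3, and heat shock and handling genes 204 to 349 and 274 to 313. The fed and fasted ranges did not overlap for oligodendrocyte and microglial markers, and overlapped for astrocyte markers and handling genes. Endothelial markers, at 4.56 to 6.56 CPM in fed and 1.78 to 3.41 in fasted libraries, did not overlap either. Nor did the class markers Prkcd (75.6 to 95.6 and 64.3 to 74.6) and Sst (20.0 to 34.7 and 45.05 to 50.1), which mark the classes with the highest and the lowest baseline Egr1 and Fos. Without neurons holding 3 or more microglial UMIs 0 members were called, and the log2 fold change was -0.15 for Fos and -0.32 for Fosb. The part of the other markers in the comparison was not tested. Of the related lists, 0 of 19 other immediate-early genes, 0 of 11 late-response genes and 0 of 15 upstream regulators were called.

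The share of Gad neurons with UMIs of 3 or more members, after thinning to 4000 UMIs, was 3.97%, 3.94% and 5.42% in the fed libraries (mean 4.44% ± 0.84, SD, n = 3) and 3.75% and 4.22% in the fasted ones (mean 3.99% ± 0.33, n = 2). The groups overlapped, and the difference of -0.453 percentage points had a two-sided exact permutation p of 0.8, where the smallest p that 3 against 2 libraries can give is 0.1. Within number 1 the fasted library was 0.217 percentage points lower (-0.217) and within number 2 0.285 higher. The block value of 0.0341 is the mean of these 2 differences. It leaves fed replicate 3 unused and so equals the difference without that library. Unthinned shares were 9.62%, 13.3% and 20.6% against 6.62% and 17.6%, lowest in fasted replicate 1 and fed replicate 1, the shallowest libraries.

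Within the 6 classes, 0 of 41 tests of members were called, 9 had an unadjusted p under 0.05, and DESeq2 called 0 with 4 at that level. Over all genes tested, 4.27% (Foxp2), 4.79% (Rarb), 6.92% (Dnah5), 6.13% (Calcrl), 7.77% (Prkcd) and 4.86% (Sst) had an unadjusted p under 0.05. The 9 include Nr4a3 and Junb in Dnah5, Fos in Rarb, Fosb in Foxp2 and Egr3 in Prkcd. By their levels, these passed the filter on low counts only through fed libraries, where they were higher. The count of 9 depends on this selection and cannot be set against these shares. The likelihood ratio test called 1 member, Nr4a3 in the Dnah5 class, where it called 0.822% of genes. By the quasi-likelihood test the background of genes called in a class ran from 0% in Rarb and Calcrl to 0.136% in Sst, with 0.0705% in Foxp2, 0.0324% in Dnah5 and 0.0434% in Prkcd. A fasting effect that differs between classes was called for 0 of 8 members tested (edgeR quasi-likelihood F-test of the interaction, with 0.0104% of genes called). Egr3 and Homer1 had an unadjusted p under 0.05 in that test, and the share of all genes at that level is not given here. The likelihood ratio test also called 0 members.

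The Dnah5-gated neurons held the most members with an unadjusted p under 0.05, 4 of 6 tested, where 6.92% of all genes were. By their levels, Nr4a3 and Junb passed the filter on low counts only through the fed libraries, where they were higher. Fos, Fosb, Egr3 and Arc did not pass it, so the share of members called at that level depends on this selection. Nr4a3 stood there at 12.2, 20.9 and 31.8 CPM in the fed libraries and at 6.0 and 5.12 in the fasted ones. The groups did not overlap, and the log2 fold change was -2.06 ± 0.46 (95% interval -3.05 to -1.07) with an adjusted p of 0.205. A single nucleus held 28 of the 52 Nr4a3 UMIs of fed replicate 3, and another 14 of the 25 of fed replicate 2. In fed replicate 1 it was 4 of 11, and the fasted sums were 6 and 11 UMIs. Over 15 alternatives the log2 fold change of Nr4a3 was -2.41 to -1.42. Junb stood at 21.0, 15.0 and 11 against 8.00 and 3.26 CPM (log2 fold change -1.61 ± 0.50, adjusted p 0.372). Nr4a1, at 25.4, 20.1 and 26.9 against 11 and 17.2 CPM, and Egr1, at 33.2, 46.0 and 31.2 against 31.0 and 12.6, had log2 fold changes of -0.73 and -0.91 with adjusted p of 0.646 and 0.605. Egr1 was barely apart in fed replicate 3 and fasted replicate 1. These values moved with single fasted libraries: without fasted replicate 2 Junb was at -0.90, Egr1 at -0.24 and Nr4a1 at -1.12, and without fasted replicate 1 they were at -2.22, -1.58 and -0.53, with none called. Together with Egr3, 5 of 9 members with a mean of at least 1 CPM were lower in both fasted than in all fed libraries, where 9.36% of 12501 genes were. The members share nuclei, so they are not 5 separate measurements. In the same sums oligodendrocyte markers were at 148 to 208 CPM in fed and 234 to 260 in fasted libraries, astrocyte markers at 24.2 to 38.5 and 41.0 to 53.5, and Sst at 40.9 to 69.4 and 72.0 to 102, and their part in the result was not tested. Fos, at 7.74, 6.69 and 7.95 against 6.0 and 8.85, Npas4 and Homer1 overlapped between the groups.

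**Figure D5:**
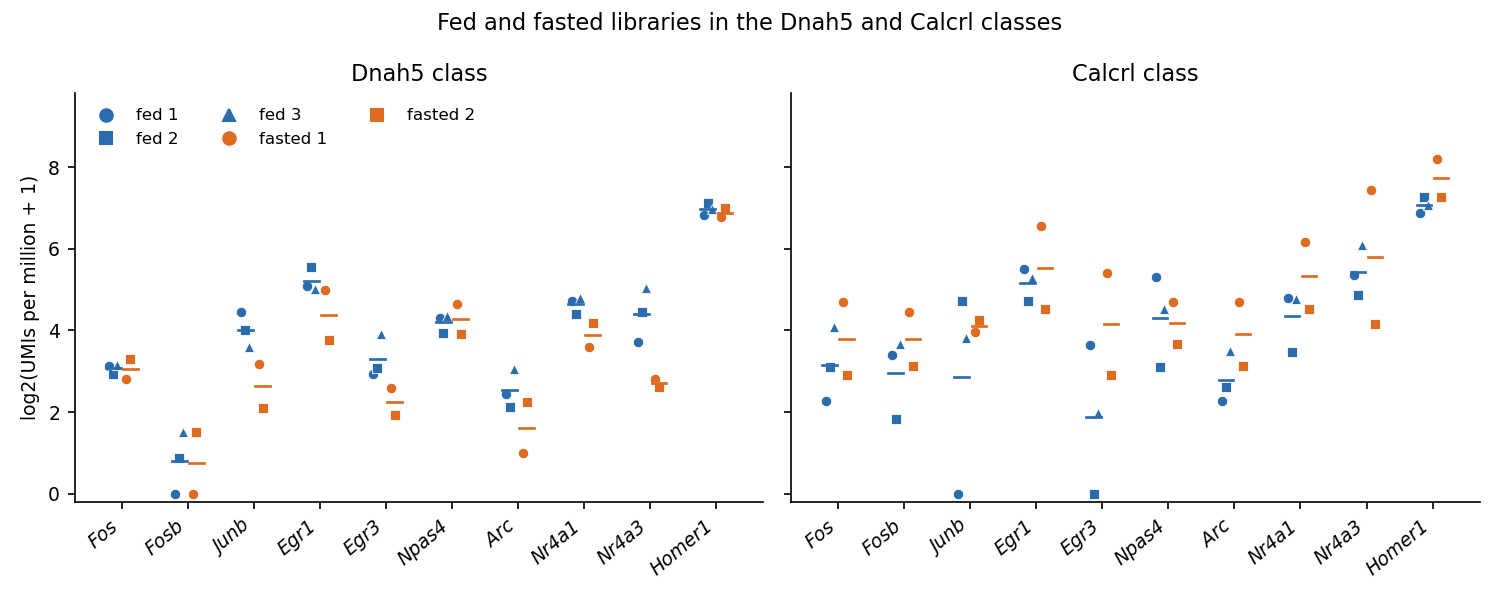
Levels of the members in Dnah5-gated and Calcrl-gated neurons of each fed and fasted library, as log2 of CPM plus 1, with lines at group means. In Dnah5 the 2 fasted points of Nr4a3 and Junb lie under the 3 fed ones, and in Calcrl fasted replicate 1 stands above the other libraries for Nr4a3, Nr4a1, Egr1 and Homer1.

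In the Calcrl-gated neurons 1 fasted library stood above the rest. Nr4a3 stood at 40.2, 28.0 and 67.4 CPM in the fed libraries, 172 in fasted replicate 1 and 16.8 in fasted replicate 2. Egr1 stood at 44.0, 25.4 and 38.1 against 93.2 and 22.0, Nr4a1 at 26.8, 10.2 and 26.4 against 70.4 and 22.0, and Homer1 at 117, 153 and 133 against 289.9 and 154. Fasted replicate 1 was the highest library for all 4, while fasted replicate 2 lay below the fed values of Nr4a3 and Egr1, among those of Nr4a1 and just above those of Homer1. Homer1 alone of the members was higher in both fasted than in all fed libraries, where 10.7% of genes were. No member was called, with log2 fold changes of 0.72 ± 0.26 for Homer1 (adjusted p 0.603), 0.97 for Nr4a1 (0.840) and 0.90 for Nr4a3 (0.930). With fasted replicate 1 as the lone fasted library, assumed to vary as the fed ones do, Nr4a3 (1.87, adjusted p 0.000683), Homer1 (1.13, 0.0272) and Nr4a1 (1.67, 0.0420) were called, where 0.507% of genes were. With fasted replicate 2 alone the log2 fold changes were -1.50, 0.18 and -0.03, with none called. Heat shock and handling genes were also highest in fasted replicate 1, at 466 CPM against 201 to 383 in the fed libraries and 295 in fasted replicate 2. Astrocyte markers (68.8 to 122 CPM in fed and 144 to 155 in fasted libraries), oligodendrocyte markers (170.5 to 224 and 251 to 256) and markers of oligodendrocyte precursor cells (50.9 to 178 and 205 to 405) did not overlap between the groups, and the part of all these lists was not tested. The nucleus of fasted replicate 1 with the most member UMIs, 44 with 20 of Nr4a3, was in this class, and without the richest nucleus of each library the log2 fold changes were 1.13 for Nr4a3, 0.75 for Homer1 and 1.25 for Nr4a1.

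In the other classes values were scattered. In Prkcd-gated neurons Egr3 stood at 1.65, 17.2 and 20.6 CPM in fed and 4.50 and 3.01 in fasted libraries (log2 fold change -2.09, adjusted p 0.362), and Fos at 4.95, 38.8 and 23.7 against 9.01 and 12.6 (-1.12, adjusted p 0.626). Both groups overlapped through fed replicate 1, and without a filter on low counts Egr3 was called (-2.10, adjusted p 0.0259), where 0.964% of genes were. By its levels Egr3 passed that filter only through fed replicates 2 and 3, where it was highest. Its test in the main fit depends on this selection. The log2 fold change of Fos was -0.59 without fed replicate 2 and -1.45 without fed replicate 1. Between the fed and fasted libraries of the same number the direction differed. In log2 of CPM plus 1, fasted minus fed was 1.05 for Egr3 and 0.75 for Fos in replicates 1. In replicates 2 it was -2.19 for Egr3 and -1.54 for Fos. Oligodendrocyte markers in this class were at 196 to 214 CPM in fed and 278 to 330.1 in fasted libraries, and their part was not tested. In Rarb-gated neurons Fos, at 5.57, 6.79 and 3.53 against 1.62 and 2.42 CPM, and Junb, at 6.37, 5.94 and 4.00 against 1.08 and 3.93, were lower in both fasted libraries, where 8.49% of genes were, though Junb in fed replicate 3 and fasted replicate 2 nearly met. In Sst-gated neurons Fos (0, 2.23 and 4.04 against 7.35 and 8.65), Egr1 (6.41, 0 and 12.1 against 12.3 and 19.2) and Arc (6.41, 2.23 and 6.05 against 7.35 and 8.65 CPM) were higher in both, where 12.8% of genes were, and with 15 to 57 nuclei per library these are a few UMIs each. Oligodendrocyte markers in the Sst class were at 84.6 to 104.9 CPM in fed and 213 to 247 in fasted libraries, and astrocyte markers at 19.2 to 60.5 and 72.1 to 154, and their part was not tested. In Foxp2-gated neurons no member separated the groups. Fosb stood there at 2.28, 7.19 and 15.3 against 0 and 2.46 CPM, with the 0 allowing up to 9.68. By these levels it passed the filter on low counts only through fed replicates 2 and 3, where it was highest. Its fitted log2 fold change of -2.20 (95% interval -3.79 to -0.62, adjusted p 0.815) depends on this selection. That value was the most negative among the members tested in any class. The log2 fold change of Fosb was -2.01 without fasted replicate 1 and -6.31 without fasted replicate 2, the latter fitted to a library at 0 and so no bound. Fosb failed the filter without fed replicate 2 or 3. Of the 26 Fosb UMIs of fed replicate 3, 14 came from 1 nucleus. With a wider Tac1 gate, set after seeing the data and holding 11 to 22 nuclei per library, Homer1 alone passed the filter on low counts (log2 fold change 0.76, adjusted p 0.998, with 0.481% of genes called).

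Of genes outside the lists, the levels of Tbrg4 (Pearson r 0.73), Wrap53 (0.69), Slc39a14 (0.64), Nuak1 (0.63) and Nop2 (0.62) were most like the mean of the members over the 30 sums of 6 classes and 5 libraries, among 8471 genes. Members are part of that mean, and those that passed the level filter of this comparison had r of 0.39 for Junb to 0.81 for Nr4a3. Fos, Fosb and Arc are also in the mean but fell below the filter and have no r. The sums share libraries and depth, and the likeness is a description.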

How the data were processed

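The authors deposited 1 matrix per library of UMI counts per gene and barcode, with 1694 to 7850 barcodes each and no cell type labels. Per the study's methods, reads of 10x 3′ libraries were mapped with Cell Ranger 5.0.0 to GRCm39 with introns included, and the matrix headers name that version, while the submitters' processing notes list Cell Ranger 2.1.1 and mm10. Intronic reads add counts to long genes such as Homer1. From the deposited counts, nuclei with 500 to 8000 genes and under 0.8% mitochondrial UMIs were kept, and Gad neurons were gated as described. A class gate needed at least 2 marker UMIs and 2 per 10000 (5 and 5 per 10000 for Foxp2 and Rarb), a nucleus took the first gate it passed, and 619 passed several. A class was tested where every library had at least 10 nuclei. Scrublet, run through Scanpy 1.11.5, called 72 doublets (1.01%), which were kept. Glial gates took nuclei without Gad UMIs and with at least 3 marker UMIs.

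UMIs were summed per library and class and tested with the quasi-likelihood test of edgeR 4.0.16 (R 4.3.3, limma 3.58.1) after TMM scaling and filterByExpr, with Benjamini-Hochberg adjustment over all genes tested and a threshold of 0.05. A gene could pass filterByExpr through the sums of 1 group alone. Tests between classes and of the Fos split had the library as a block. Shares were compared with SciPy 1.17.1. The fits were tested on simulated data. The members, gene lists and tests were chosen with earlier results of these data known. The 10 members are named in every comparison, and from each list those past the threshold, at most 6 per comparison by adjusted p, and the 5 genes nearest in pattern. Alternatives were the edgeR likelihood ratio test that the study used, DESeq2 1.42.0, other scaling, filters and gates, the replicate number as a block, and each library left out. Alternatives without the richest nuclei, without neurons holding microglial UMIs or Prkcd-gated neurons, and with a wider Tac1 gate were chosen after seeing the data. The block assumes that the paper's numbers of datasets prepared together are the replicate numbers, which the labels do not state. Same-numbered libraries deviated together in Gad neurons, with correlations across genes of 0.335 and 0.492. The 2 fasted libraries deviate from their mean as mirror images, so both values use the same fasted contrast and are not separate. In both groups replicate 1 was also shallower than replicate 2, and the part of depth in these correlations was not tested.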

Additional observations from a re-analysis of the deposited data

How the results depend on the processing

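For fasted against fed, 0 members were called in Gad neurons under all 15 alternatives. Genes called there numbered 174 by the likelihood ratio test, 121 by DESeq2, 125 without a filter on low counts, 413 with the replicate block, 1 with a Gad gate of 3 UMIs and 0 to 35 when 1 library was left out (35 without fed replicate 1 and 1 without fasted replicate 1). Members called in the classes numbered 1 by the likelihood ratio test (Nr4a3 in Dnah5, log2 fold change -2.04, adjusted p 0.00977), 2 without a filter (Nr4a3 in Dnah5 and Egr3 in Prkcd) and 0 to 3 when 1 library was left out, the 3 being those in Calcrl without fasted replicate 2. Members that differed between classes numbered 7 with doubled gates, which left out Calcrl and Sst and so compared other classes. They numbered 6 over all 5 libraries and 2 to 5 when 1 fed library was left out (2 without fed replicate 3, where Fos failed the filter). The main fit called 36.4% of all genes. The share in these alternatives is not given here, so their counts cannot be set against a background. All 9 members kept their call in the Fos split under its 10 alternatives, and none was called for a fasting effect that differs between classes under its 8.

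With the replicate block, the log2 fold changes in Gad neurons turned to 0.0210 for Fos, 0.40 for Fosb, 0.0749 for Egr1, 0.0462 for Npas4, 0.0744 for Nr4a1 and 0.27 for Nr4a3, and the pairing changed no call of a member. Those of Nr4a3 were 0.0186 with a Gad gate of 3 UMIs and 0.0643 without the richest nuclei, and that of Egr1 was 0.0162 without neurons holding microglial UMIs. Leaving out 1 library gave -0.50 to 0.0220 for Fos, -0.79 to 0.46 for Fosb, -0.34 to 0.0813 for Junb, -0.10 to 0.0649 for Egr1, -0.16 to 0.39 for Egr3, -0.33 to 0.0207 for Npas4, -0.10 to 0.34 for Arc, -0.42 to 0.0327 for Nr4a1, -0.34 to 0.25 for Nr4a3 and -0.0404 to 0.10 for Homer1. In Calcrl it gave -0.0299 to 1.67 for Nr4a1 and -1.50 to 1.87 for Nr4a3. The difference in the share of neurons with 3 or more members was 0.0341 percentage points with the replicate block and -0.704 to 0.0341 when 1 library was left out, the highest without fed replicate 3. For this share the block and that omission compare the same libraries. In the block fits fed replicate 3 has no fasted library of its number, so it adds nothing to the fasted contrast. It was the highest library in Gad neurons for every member but Junb. The cause of the turns in log2 fold change was not tested. Doubled gates were not run for Calcrl and Sst, which had too few nuclei. With 2 fasted libraries and single-digit UMI counts for many members in a class, only large changes could pass the threshold.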
